A study of Mus musculus with 12 samples.

Results

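The genes that encode enzymes of histone and DNA modification were followed through 12 single mouse cardiac precursor cells (CPs). They were taken by name from the gene table: every symbol that begins with Kat, Kdm, Hdac, Sirt, Chd, Prmt, Dnmt or Ezh and a digit, every symbol that begins with Setd, Kmt or Ehmt, and Tet1, Tet2, Tet3, Suz12 and Eed. Kdm5c, Kdm5d and Kdm6a were left out. The rule found 85 of the 14063 listed genes, and it used no expression value. Of the 85, 47 averaged 10 RPM or more across the 12 cells, as did 5031 genes in all, and these are called measured below. RPM is the read number of a gene scaled to the aligned reads of its cell. It is not divided by gene length, so levels are compared between cells and not between genes.

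Chromatin enzymes set and remove the chemical marks by which the same genome is read differently in different cells. Acetyltransferases (Kat) and methyltransferases (Setd, Kmt, Ehmt, Ezh, Prmt) write marks on histones, deacetylases (Hdac, Sirt) and demethylases (Kdm) take them off, Dnmt enzymes methylate cytosine in DNA and Tet enzymes oxidise the methyl group. CHD proteins use ATP to move nucleosomes. Several of these genes are needed for heart development in the mouse, and CHD7 is the gene mutated in most people with CHARGE syndrome, which includes heart malformations. Not every product of the 85 genes acts on chromatin: Setd3 methylates actin, Hdac6 removes acetyl groups from tubulin, and Chd3os is carried by its symbol alone, since RefSeq gives that name as an older symbol of Rnf227.

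The cells were picked from CD1 embryos of the early allantoic bud stage (EB) or the early head fold stage (EHF), with no allele or treatment named. There were 3 cells in each of 4 subpopulations, namely EB Nkx2-5+ cells, EB Tbx5+ cells, EHF Nkx2-5+ cells and EHF Nkx2-5+/Tbx5+ cells, which the authors told apart by a PCR of Tbx5 and Nkx2-5 run on each cell's amplified cDNA. Candidate cells had also been positive for Cfc1 and negative for Sox17 and Sox2 in that PCR. The embryo of origin is not named for any cell, so each subpopulation counts as 1 sample. No test between subpopulations was possible for that reason, and every value is given cell by cell, in the order of replicates 1, 2 and 3.

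In the sequenced libraries Nkx2-5 was listed at 1.48 to 262 RPM in the 9 cells named for it and at 0 in the 3 EB Tbx5+ cells. Tbx5 stood at 60.3, 3.69 and 8.69 RPM in EHF Nkx2-5+/Tbx5+ cells and at 0 in the 6 CPs named for Nkx2-5 alone. In the 3 libraries labelled EB Tbx5+ it stood at only 0.218, 0.0276 and 0.335 RPM, the second of which is the worth of 1 read, so sequencing did not show a clear Tbx5 signal in them. Cfc1 was at or under 0.0882 RPM in 3 EB cells. Endoderm markers summed to at most 0.0895 RPM in any cell. Of the listed neural ectoderm markers, Otx2 reached 11.2 RPM in EB Nkx2-5+ replicate 3. In the other subpopulations these markers summed to at most 0.0574 RPM. Sox2 was not listed, so it could not be checked here. Epcam, an epithelial gene, reached 164 RPM in EB Nkx2-5+ replicate 2 and 123 RPM in EB Tbx5+ replicate 1, while Cdh1 was at 0 in all cells. Kdr, a gene of vascular and early cardiac mesoderm, reached 395 RPM and 339 RPM in the same cells and 495 RPM in EHF Nkx2-5+ replicate 3. Etv2, an endothelial and blood marker, stood at 59.0, 229 and 70.7 RPM in EB Nkx2-5+ cells and at most 41.7 RPM in the other cells. Of the same kind, Tal1 reached 46.6 RPM in EB Nkx2-5+ replicate 2 and Runx1 10.6 RPM in EB Tbx5+ replicate 1.

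Each library had between 12475588 and 37905007 aligned reads, and a gene with no read in a cell could still be expressed there at the level of 3 reads, which is 0.0791 to 0.240 RPM. That limit covers counting alone and not losses before or during amplification. In all, 3 cells had clearly fewer genes at 1 RPM or more than the rest: EHF Nkx2-5+/Tbx5+ replicate 3 with 2682, EHF Nkx2-5+ replicate 2 with 3073 and EB Tbx5+ replicate 2 with 3249. The other 9 cells had 4386 to 5650.

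Chromatin enzyme genes were detected more widely than the average listed gene, but not more widely than other measured genes. Among measured genes, 34.0% of them against 35.3% of all reached 1 RPM in at least 10 cells. In all 12 cells the shares were 8.51% and 11.7%. The shares that follow are over all listed genes. Between 24 and 49 of the 85 genes reached 1 RPM in a cell, 28.2% to 57.6% of them, against 19.1% to 40.2% of all listed genes, and their share was above that of all genes in each of the 12 cells. The lowest counts, 24 in EB Tbx5+ replicate 2 and 25 in EHF Nkx2-5+ replicate 2, fell in cells with few genes overall. In EHF Nkx2-5+/Tbx5+ replicate 3, the cell with the fewest genes, 34 of the 85 were still at 1 RPM or more (40.0% against 19.1% of all genes). Only 4 genes reached 1 RPM in all 12 cells (Chd4, Dnmt1, Ehmt1 and Setd1a), a share of 4.71% against 4.29% of all genes, while 17 did so in at least 10 cells (20.0% against 13.4%). At the other end, 8 genes reached 1 RPM in none of the cells (9.41% against 27.6%): Chd3os, Chd9, Hdac9, Kdm4a, Kdm8, Setdb2, Sirt4 and Tet2. Setdb2, a histone methyltransferase, and Sirt4, a mitochondrial sirtuin, were listed at 0 throughout.

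**Figure D1:**
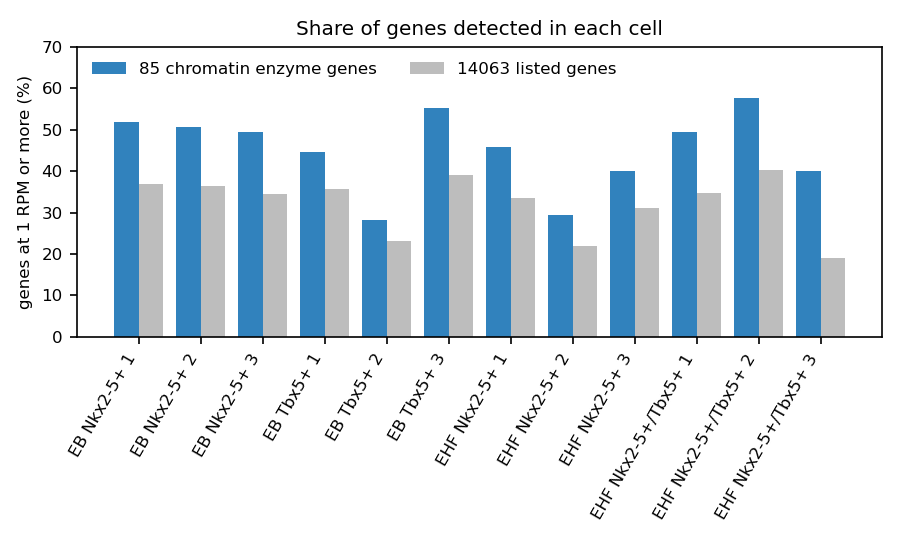
Share of genes at 1 RPM or more in each of the 12 cells, for the 85 chromatin enzyme genes (blue) and all 14063 listed genes (grey), as bars in percent. The blue bar is the taller one in every cell, from 28.2% in EB Tbx5+ replicate 2 to 57.6% in EHF Nkx2-5+/Tbx5+ replicate 2.

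The RPM of the 85 genes summed to 2877, 2754 and 2355 in EB Nkx2-5+ cells, 3015, 3286 and 1819.9 in EB Tbx5+ cells, 2197, 6171 and 2567 in EHF Nkx2-5+ cells and 4083, 3934 and 3798 in EHF Nkx2-5+/Tbx5+ cells. The last 3 cells lay close together and above all cells but EHF Nkx2-5+ replicate 2, where Chd4 alone made up 82.7% of the sum. Without its top gene that cell had 1070.4 RPM, the lowest of the 12. Chd4 had the highest RPM of these genes in 8 cells, Dnmt3b in EHF Nkx2-5+ replicate 1 and EHF Nkx2-5+/Tbx5+ replicate 2, Setd8 in EB Nkx2-5+ replicate 2 and Tet1 in EHF Nkx2-5+/Tbx5+ replicate 3. A typical gene was unevenly spread, with 48.5% of its RPM in a single cell (median over the genes above 0, against 57.1% over all genes). Among measured genes the share was 40.1% against 40.6%, and the median coefficient of variation over the cells was 1.58 in both.

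Each subpopulation was set against the other 9 cells by the log2 difference of the mean RPM, with 10 RPM added to each mean, and a gene is called higher or lower here when that difference is at least 2-fold. The added 10 RPM makes the difference of a low gene smaller than its ratio. Since means of 3 and of 9 such uneven values are compared, many genes pass in any comparison, and the counts are read against the share over the 5031 genes. Of the 47 chromatin enzyme genes, 15 were higher in EHF Nkx2-5+/Tbx5+ cells (31.9%, against 19.7% of all genes) and 11 were lower (23.4% against 31.5%). Their median difference was 0.29, and that of all genes was -0.27. In EHF Nkx2-5+ cells 4 were higher (8.51% against 13.1%) and 19 lower (40.4% against 44.9%), with medians of -0.81 and -0.80. In EB Tbx5+ cells 7 were higher (14.9% against 16.2%) and 19 lower (40.4% against 33.0%), with medians of -0.45 and -0.28. In EB Nkx2-5+ cells 8 were higher (17.0% against 20.5%) and 15 lower (31.9% against 27.4%), with medians of -0.30 and -0.07. With the 6 EHF cells against the 6 EB cells, 16 were higher in EHF (34.0% against 20.0%) and 10 lower (21.3% against 26.7%), with medians of 0.08 and -0.19. These 5 comparisons share cells, so a gene that is high in one subpopulation lowers its value in the others.

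**Figure D2:**
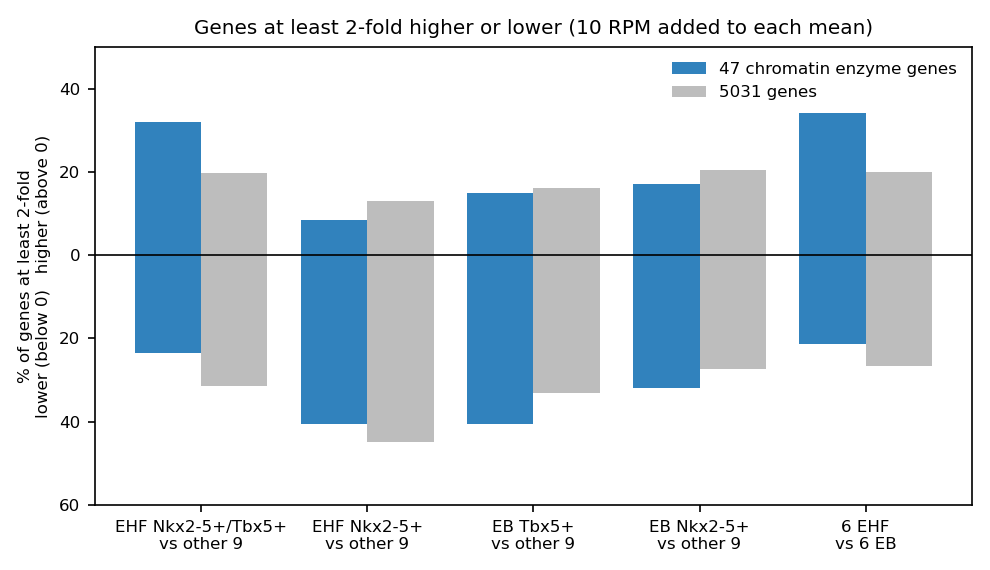
Percent of genes at least 2-fold higher (bars upward) or lower (bars downward) in the subpopulation named on the x axis against the other 9 cells, and in the 6 EHF cells against the 6 EB cells, for the 47 chromatin enzyme genes (blue) and the 5031 genes (grey) that were measured. The blue upward bar is above the grey one in EHF Nkx2-5+/Tbx5+ cells (31.9% against 19.7%) and in the EHF cells (34.0% against 20.0%), and below it in the other 3 comparisons.

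Most differences rested on single cells, so each of the 12 cells was left out in turn. Of the 15 genes higher in EHF Nkx2-5+/Tbx5+ cells, 7 remained at least 2-fold higher whichever of the 12 cells was left out (46.7%, against 24.2% of the higher genes among all): Kat7, Chd2, Chd3, Chd6, Chd7, Kdm1a and Kdm3b. In the 3 other subpopulations 0 of 4, 0 of 7 and 1 of 8 higher genes did so, the last being Kdm4b in EB Nkx2-5+ cells (13.9%, 20.4% and 26.0% of all higher genes). Without the 3 cells with the fewest genes, which leaves 2 EHF Nkx2-5+/Tbx5+ cells against 7 cells, 16 of 46 genes were higher (34.8% against 20.8%) and 11 lower (23.9% against 29.6%). In the same cells, EHF against EB gave 11 higher genes of 46 (23.9% against 18.8%) and 8 lower (17.4% against 24.4%). EHF Nkx2-5+/Tbx5+ replicate 1 was the cell with the highest value for 11 of the 47 genes (23.4%, against 10.2% of all genes). Without it the median difference became -0.51, over the chromatin enzyme genes that still averaged 10 RPM or more. Kat7 then fell under that minimum, so this median is not over the same 47 genes. The median of all genes without that cell is not set beside it. Alone, the value does not show whether these genes moved apart from the others. The 11 listed cardiac precursor markers, which include Nkx2-5 and Tbx5, summed to 1329 to 3454 RPM in EHF Nkx2-5+/Tbx5+ cells and to 111 to 2160 RPM in the others, so the ranges overlapped. Within the list Hand1 was at 0, 0 and 127 RPM and Mesp1 at 0 in all 3 cells, against up to 1684 and 532 RPM elsewhere. The 5 listed endothelial and blood markers summed to 0.0574 to 41.7 RPM and to 0.138 to 671 RPM, with Kdr, Tal1 and Gata1 at 0 in all 3 cells. Etv2, of the same list, was not absent from them and stood at 41.7, 6.86 and 0 RPM. In EB Nkx2-5+ cells it stood at 59.0, 229 and 70.7 RPM. The part of all these markers in the result was not tested.

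**Figure D3:**
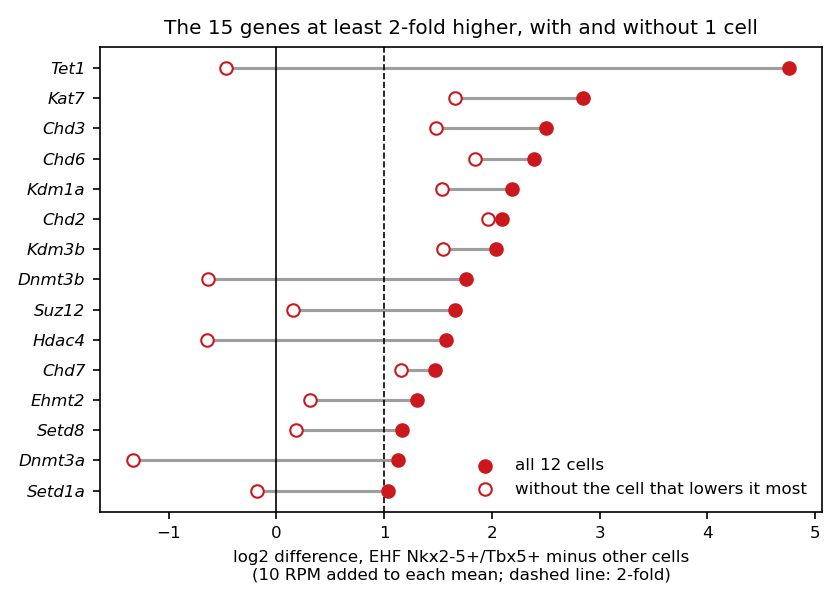
The log2 difference of mean RPM (x axis, 10 RPM added to each mean) between the EHF Nkx2-5+/Tbx5+ CPs and the other cells, for the 15 genes at least 2-fold higher (y axis), from all 12 cells (filled) and without the cell that lowers the value most (open). The open points of Kat7, Chd3, Chd6, Kdm1a, Chd2, Kdm3b and Chd7 stay to the right of the dashed 2-fold line, and that of Tet1 moves from 4.76 to -0.47.

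Lower genes that held with any cell left out were few in EHF Nkx2-5+/Tbx5+ cells, 2 of 11 (18.2%, against 39.5% of all lower genes): Eed and Setd3. In EHF Nkx2-5+ cells there were 10 of 19 (52.6% against 47.1%), namely Ehmt1, Kat5, Setd8, Eed, Kmt2a, Kat7, Chd2, Kdm1a, Kdm4b and Kdm3b. In EB Tbx5+ cells 7 of 19 held (36.8% against 37.8%), namely Setd7, Kmt2a, Sirt7, Chd6, Ehmt2, Kdm1a and Kdm3b, and in EB Nkx2-5+ cells 2 of 15 (13.3% against 32.4%), Setd1a and Chd6. For EHF against EB cells, Chd6 and Chd7 stayed higher, 2 of 16 (12.5% against 25.5%), and Eed and Kdm4b lower, 2 of 10 (20.0% against 37.7%).

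Among the 47 genes, Kat7 was the 1 gene that was higher in all 3 EHF Nkx2-5+/Tbx5+ cells than in any other cell. Kat7 encodes an acetyltransferase of the MYST family, also called HBO1, that acetylates histones H3 and H4. It stood at 22.4, 0.882 and 1.73 RPM in EB Nkx2-5+ cells, 0.817, 0.0276 and 7.15 RPM in EB Tbx5+ cells, 2.54, 0 and 0 RPM in EHF Nkx2-5+ cells and 204, 45.4 and 22.7 RPM in EHF Nkx2-5+/Tbx5+ cells. The third EHF Nkx2-5+/Tbx5+ cell was thus only just above EB Nkx2-5+ replicate 1, and all other cells were at or under 7.15 RPM. The log2 difference was 2.85, and 1.66 without EHF Nkx2-5+/Tbx5+ replicate 1. The 2 remaining cells were then still above all others, by a margin of 22.7 against 22.4 RPM for the lower of them, but the mean of the gene fell under 10 RPM. Over all measured genes, 0.994% lay above every other cell in these 3 cells and 0.239% below. In the other subpopulations 0 of the 47 genes had 3 cells above or below all others, and the shares over all genes were small as well, 0.378% above and 0.457% below in EHF Nkx2-5+ cells, 0.477% and 0.179% in EB Tbx5+ cells, and 0.537% and 0.0994% in EB Nkx2-5+ cells. Without the 2 cells that had the fewest genes, the count above in the remaining 2 EHF Nkx2-5+/Tbx5+ cells became 6 of 46 (Kat7, Chd3, Chd6, Kdm1a, Kdm3b and Suz12), 13.0% against 4.07% of all genes.

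Promoter windows are shown here for 3 of the 7 genes that were at least 2-fold higher in EHF Nkx2-5+/Tbx5+ cells with any cell left out. No window was at hand for Chd2, Chd3, Chd7 and Kdm3b. All 3 genes were high in replicates 1 and 2, and Chd6 was near 0 in replicate 3. Each is 300 bases long and runs from 250 bases before to 50 bases after a start used for the RefSeq promoter table, on build GRCm38.p6, the assembly of mm10, with CpG dinucleotides in capitals. For Kdm1a that start lies inside the annotated span of the gene and not at its end.
Kat7, chr11:95310197-95310496, minus strand: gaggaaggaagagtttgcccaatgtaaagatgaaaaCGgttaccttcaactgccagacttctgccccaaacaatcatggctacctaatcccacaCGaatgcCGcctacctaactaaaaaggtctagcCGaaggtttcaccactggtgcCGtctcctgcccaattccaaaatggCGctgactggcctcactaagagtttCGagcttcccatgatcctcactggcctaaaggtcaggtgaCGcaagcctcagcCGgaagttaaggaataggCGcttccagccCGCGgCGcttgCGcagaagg
Chd6, chr2:161109037-161109336, minus strand: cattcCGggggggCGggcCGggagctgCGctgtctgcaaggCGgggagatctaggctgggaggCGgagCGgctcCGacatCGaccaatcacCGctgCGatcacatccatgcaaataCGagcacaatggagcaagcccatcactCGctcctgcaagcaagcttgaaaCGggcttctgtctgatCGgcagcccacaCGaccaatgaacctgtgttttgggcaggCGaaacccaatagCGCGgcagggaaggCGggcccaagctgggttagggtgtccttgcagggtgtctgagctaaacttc
Kdm1a, chr4:136602674-136602973, minus strand: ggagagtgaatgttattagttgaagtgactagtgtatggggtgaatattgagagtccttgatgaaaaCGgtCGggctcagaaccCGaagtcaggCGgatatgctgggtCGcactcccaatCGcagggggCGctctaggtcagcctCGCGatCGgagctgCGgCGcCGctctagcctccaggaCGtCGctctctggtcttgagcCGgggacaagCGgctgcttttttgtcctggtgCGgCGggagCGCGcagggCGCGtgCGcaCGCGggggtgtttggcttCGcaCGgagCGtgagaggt

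The windows lie at the ends of Kat7 (chromosome 11, 95271853 to 95310246), Chd6 (chromosome 2, 160946978 to 161109086) and Kdm1a (chromosome 4, 136550533 to 136602787). They hold 14, 20 and 29 CpGs. Of the 4 sequence motifs searched on both strands, the Kat7 window holds CCGGAAGT, a site of the ETS type, the Chd6 window holds GGGGCGGG, a GC box, and the Kdm1a window holds none, so the 3 windows share none of them. A promoter window was at hand for 68 of the 85 genes. Their median was 21.5 CpGs, with an observed to expected CpG ratio of 0.787. The 10368 listed genes with a window, 73.7% of those listed, had a median of 20 CpGs and a ratio of 0.753, and all 27025 promoters in the table had 7 and 0.389. CCGGAAGT stood in 8.82% of the 68 windows, 7.86% of those of listed genes and 4% of all. GGGGCGGG stood in 32.4%, 31.0% and 16.7%, GCGCATGC (an NRF1-type site) in 2.94%, 5.30% and 2.81%, and TATAAA (the TATA box) in 2.94%, 7.27% and 14.2%. For CpG content and the first 2 motifs the 68 windows were thus close to those of the listed genes. Since under 80% of the listed genes had a window, nothing further is read from this comparison. These are descriptions of the letters, and no factor was measured at them.

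Among the CHD remodellers, 4 of the 5 measured genes were higher in EHF Nkx2-5+/Tbx5+ cells (Chd2, Chd3, Chd6 and Chd7), against 19.7% of all genes, and the fifth, Chd4, was lower, as were 31.5% of all genes. All 5 were higher in EHF than in EB cells (20.0% of all genes), but only Chd6 and Chd7 with any cell left out. Chd3 fell from 1.80 to 0.86 without EHF Nkx2-5+/Tbx5+ replicate 2 and Chd2 from 1.04 to 0.70 without replicate 1, and Chd4 turned from 1.03 to -0.45 without EHF Nkx2-5+ replicate 2. Chd6 stood at 0.576, 0.0441 and 0.167 RPM in EB Nkx2-5+ cells, 2.56, 0 and 0.548 RPM in EB Tbx5+ cells, 51.9, 3.27 and 0 RPM in EHF Nkx2-5+ cells and 99.1, 131 and 0.0860 RPM in EHF Nkx2-5+/Tbx5+ cells. It was thus high in 3 EHF cells, of both kinds, and at most 2.56 RPM in the 6 EB cells, and its difference between EHF and EB cells was 2.43, or at least 1.94 with any cell left out. Chd3, a subunit of the NuRD complex, was at 38.8 and 111 RPM in the first 2 EHF Nkx2-5+/Tbx5+ cells, at 0.0287 RPM in the third, and at most 2.63 RPM in the other 9 cells. Chd2, another remodeller of the family, stood at 117, 70.5 and 108 RPM in EHF Nkx2-5+/Tbx5+ cells, against 82.2, 2.12 and 0.111 RPM in EB Nkx2-5+ cells, 0, 0 and 37.3 RPM in EB Tbx5+ cells and 17.3, 0 and 0.0802 RPM in EHF Nkx2-5+ cells. The 3 cells were the most even group of the gene, but EB Nkx2-5+ replicate 1 fell among them. Exons of Chd2 overlap those of 1810026B05Rik on the same strand. The latter was at 97.5 RPM in that EB cell and at most 4.25 RPM in EHF Nkx2-5+/Tbx5+ cells. In EB Tbx5+ replicate 1 it was at 27.8 RPM with Chd2 at 0. In EB Tbx5+ replicate 3 it was at 0.274 RPM with Chd2 at 37.3 RPM. The part of shared reads in the Chd2 value of EB Nkx2-5+ replicate 1 was not tested.

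Chd7 was high in 2 of the 3 EHF Nkx2-5+/Tbx5+ cells and in 1 EHF Nkx2-5+ cell. Its values were 90.0, 78.0 and 6.38 RPM in EB Nkx2-5+ cells, 144, 0.138 and 52.5 RPM in EB Tbx5+ cells, 28.4, 0.790 and 319 RPM in EHF Nkx2-5+ cells and 338, 57.5 and 323 RPM in EHF Nkx2-5+/Tbx5+ cells, a difference of 1.47 for the double-positive cells and of 1.39 for the 6 EHF cells. Chd4, the ATPase of the NuRD complex, was detected in every cell. It stood at 575, 326 and 439 RPM in EB Nkx2-5+ cells, 635, 1244 and 277 RPM in EB Tbx5+ cells, 244, 5100.1 and 865 RPM in EHF Nkx2-5+ cells and 415, 256 and 337 RPM in EHF Nkx2-5+/Tbx5+ cells. EHF Nkx2-5+ replicate 2 had a far higher level than any other cell, and it alone gave EHF Nkx2-5+ cells their difference of 2.03, which was 0.15 without it. The difference of Chd4 in EHF Nkx2-5+/Tbx5+ cells likewise went from -1.66 to -0.76 without that cell. That cell had few genes, and the part of its low complexity in the Chd4 value was not tested. Of the remaining members, Chd1 had 50.3 RPM in the same cell and at most 9.65 RPM elsewhere, Chd5 was above 0 only in EB Nkx2-5+ replicate 1 (30.1 RPM), Chd1l reached 18.2 RPM in 1 cell, Chd8 at most 12.9 RPM, and Chd9 was above 0 in 1 cell only.

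**Figure D4:**
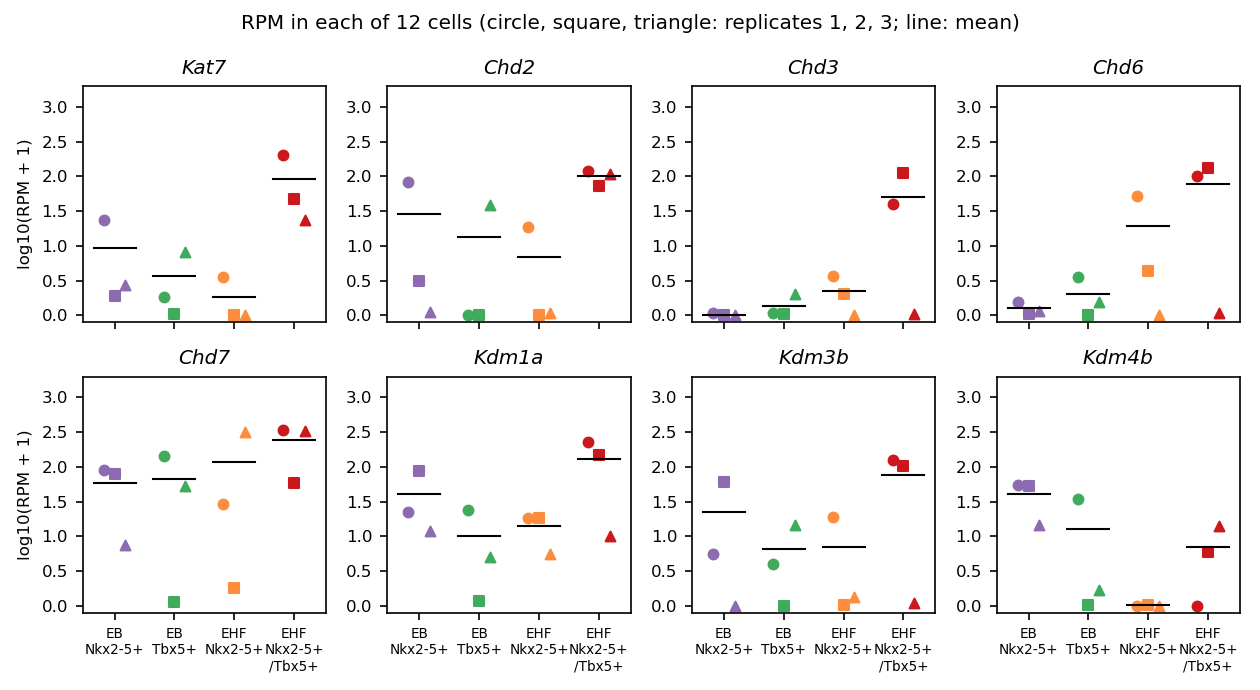
Level of 8 genes in each of the 12 cells, as log10 of RPM plus 1 (y axis) for the 4 subpopulations (x axis). Circles, squares and triangles are replicates 1, 2 and 3, and the line is the mean RPM on the same scale. Kat7, Chd2, Chd3, Chd6, Chd7, Kdm1a and Kdm3b have their highest mean in EHF Nkx2-5+/Tbx5+ cells, with replicate 3 near 0 for Chd3, Chd6 and Kdm3b, and Kdm4b has its highest mean in EB Nkx2-5+ cells.

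Of the 14 lysine demethylases, 5 were measured, and 2 of the 5 were higher in EHF Nkx2-5+/Tbx5+ cells, against 19.7% of all genes. Kdm1a (LSD1), which demethylates histone H3 lysine 4 in the CoREST complex, stood at 230.0, 149 and 8.95 RPM there and at 0.166 to 86.9 RPM in the other 9 cells, a difference of 2.18. The third cell overlapped the others. Kdm3b, an H3 lysine 9 demethylase, followed the same pattern of cells with 125, 102 and 0.0860 RPM against at most 58.9 RPM, a difference of 2.03. Kdm3b was lower in both EHF Nkx2-5+ cells (-1.46) and EB Tbx5+ cells (-1.52).

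Kdm4b, which acts on trimethylated H3 lysine 9, was highest in EB Nkx2-5+ cells and stood at 54.6, 51.5 and 13.6 RPM in EB Nkx2-5+ cells, 33.9, 0.0276 and 0.700 RPM in EB Tbx5+ cells, 0, 0.0282 and 0 RPM in EHF Nkx2-5+ cells and 0, 4.97 and 13.0 RPM in EHF Nkx2-5+/Tbx5+ cells. Its difference was 1.65 in EB Nkx2-5+ cells and -1.46 for EHF against EB cells, and both stayed at least 2-fold with any cell left out, although the third EB Nkx2-5+ cell lay among the other cells. Kdm6b, an H3 lysine 27 demethylase, ranged from 0.132 to 49.9 RPM and was called in none of the comparisons. Kdm3a, which is related to Kdm3b, was at 72.3, 57.7 and 11.6 RPM in 3 cells of different subpopulations and at most 1.76 RPM in the rest. Among the genes below the minimum mean, Kdm5b was at 1.62, 3.22 and 2.31 RPM in EB Nkx2-5+ cells, 2.83, 0.415 and 1.19 RPM in EB Tbx5+ cells, 0.0597, 0 and 0.721 RPM in EHF Nkx2-5+ cells and 1.69, 2.27 and 0.889 RPM in EHF Nkx2-5+/Tbx5+ cells, and Kdm5a at 19.5 RPM in EHF Nkx2-5+/Tbx5+ replicate 3 and at most 1.31 RPM in the other subpopulations.

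The other measured acetyltransferases were high in some cells and near 0 in others. Kat5 (Tip60) stood at 20.6, 75.4 and 127 RPM in EB Nkx2-5+ cells, 0.436, 0.0276 and 113 RPM in EB Tbx5+ cells, 0, 0.0282 and 0.0802 RPM in EHF Nkx2-5+ cells and 233, 0.0273 and 0.0287 RPM in EHF Nkx2-5+/Tbx5+ cells. It thus had 5 cells above 20 RPM and 7 at or under 0.436 RPM, with the 3 EHF Nkx2-5+ cells all among the latter, a difference of -2.87 that was -2.37 at its smallest with any cell left out. Exons of Kat5 overlap those of Rnaseh2c on the opposite strand, and the libraries do not keep the strand. Rnaseh2c stood at up to 43.0 RPM in the cells where Kat5 was near 0, apart from 183 RPM in EB Tbx5+ replicate 2. Kat2a (GCN5) ranged from 0 to 139 RPM and was higher in EB Nkx2-5+ cells, at 9.69, 139 and 74.3 RPM, by 1.01, or by 0.31 without replicate 2. Kat2b, Kat6a, Kat6b and Kat8 all had means under 2 RPM.

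The 3 listed class I deacetylases gave 1 higher and 1 lower value over the comparisons of subpopulations. Hdac8, also of class I, is not among the listed genes. The higher one was in EHF Nkx2-5+ cells, where 13.1% of all genes were higher. The lower one was in EB Nkx2-5+ cells, where 27.4% of all genes were lower. Hdac1 stood at 15.8, 45.6 and 10.5 RPM in EB Nkx2-5+ cells, 2.29, 23.9 and 36.9 RPM in EB Tbx5+ cells, 38.4, 0.621 and 32.3 RPM in EHF Nkx2-5+ cells and 48.6, 26.6 and 0.0287 RPM in EHF Nkx2-5+/Tbx5+ cells, and no difference reached 2-fold. Hdac2, its close relative and partner in the same corepressor complexes, stood at 5.73, 2.87 and 1.62 RPM in EB Nkx2-5+ cells, 69.7, 11.8 and 5.12 RPM in EB Tbx5+ cells, 0.686, 0.113 and 41.4 RPM in EHF Nkx2-5+ cells and 0.660, 64.2 and 0.143 RPM in EHF Nkx2-5+/Tbx5+ cells. Its 3 highest cells came from 3 subpopulations, and it was lower in EB Nkx2-5+ cells (-1.23, or -0.93 without EB Tbx5+ replicate 1). Hdac3, the deacetylase of the NCoR and SMRT complexes, stood at 65.9, 24.1 and 5.74 RPM in EB Nkx2-5+ cells, 0.0272, 10.1 and 28.5 RPM in EB Tbx5+ cells, 85.4, 2.00 and 70.6 RPM in EHF Nkx2-5+ cells and 13.0, 40.3 and 0 RPM in EHF Nkx2-5+/Tbx5+ cells, which gave EHF Nkx2-5+ cells a difference of 1.02, or 0.59 without replicate 1. In EHF Nkx2-5+/Tbx5+ replicate 3, all 3 listed class I genes were at or under 0.143 RPM. Without the 2 cells with the fewest genes, the 2 remaining EHF Nkx2-5+ cells lay above all 8 other cells for Hdac3 and Kdm6b and below them for Hdac6 (4.35% of 46 genes above, against 2.18% of all genes, and 2.16% below).

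In class IIa, whose members bind the cardiac factor Mef2, Hdac4 was at 55.5 RPM in EB Nkx2-5+ replicate 3, 114 RPM in EHF Nkx2-5+/Tbx5+ replicate 2 and at most 0.660 RPM in the other 10 cells. Hdac5 stood at 10.2, 90.3 and 39.8 RPM in EB Tbx5+ cells, against 18.3, 0.441 and 12.9 RPM in EB Nkx2-5+ cells, 0.0597, 0.0846 and 34.8 RPM in EHF Nkx2-5+ cells and 38.1, 1.39 and 0 RPM in EHF Nkx2-5+/Tbx5+ cells, a difference of 1.38 in EB Tbx5+ cells that became 0.68 without their replicate 2, one of the 3 cells with few genes. Hdac6 of class IIb was highest in EB Nkx2-5+ replicate 1 (116 RPM) and EB Tbx5+ replicate 1 (47.4 RPM) and at most 8.27 RPM in the 6 EHF cells. Hdac10 was at 98.5 RPM in EHF Nkx2-5+/Tbx5+ replicate 3 and at most 5.84 RPM elsewhere, and Hdac11, of class IV, at 56.5 and 47.9 RPM in 2 cells and at most 1.58 RPM in the rest.

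Sirtuins, which need NAD, were high in single cells. Sirt5, a mitochondrial desuccinylase, was at 169 RPM in EB Nkx2-5+ replicate 2 and at most 0.144 RPM in the other 11 cells, so its difference of 2.73 in EB Nkx2-5+ cells became 0.01 without that cell, the one with 164 RPM of Epcam and 395 RPM of Kdr. The part of other cell types in that value was not tested. Sirt6, a nuclear deacetylase, was at 139.6 and 21.0 RPM in 2 EB Tbx5+ cells and at 0.578 RPM in the third, a difference of 2.25 that became 0.64 without EB Tbx5+ replicate 2. Sirt7, a nucleolar sirtuin, and Sirt2, a mostly cytoplasmic one, reached 92.7 and 84.4 RPM at most. Sirt7 was at most 0.457 RPM in EB Tbx5+ cells, a difference of -2.18. It was also at 0.0360 RPM in EB Nkx2-5+ replicate 1 and at 0 in EHF Nkx2-5+/Tbx5+ replicate 2. Sirt1, with a mean of 1.60 RPM, reached 8.02 RPM at most.

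Of the genes for DNA methylation, Dnmt1, which copies methylation to the new strand after replication, was at 1 RPM or more in all 12 cells. It stood at 359, 113 and 122 RPM in EB Nkx2-5+ cells, 217, 479.6 and 186 RPM in EB Tbx5+ cells, 67.4, 18.8 and 272 RPM in EHF Nkx2-5+ cells and 166, 113 and 2.67 RPM in EHF Nkx2-5+/Tbx5+ cells. The 6 EB cells lay between 113 and 479.6 RPM, while the EHF cells spread from 2.67 to 272 RPM and overlapped with them, a difference of -1.14 for EHF against EB cells, which became -0.85 without EB Tbx5+ replicate 2. Its lowest cells were 2 of the 3 with few genes, EHF Nkx2-5+ replicate 2 and EHF Nkx2-5+/Tbx5+ replicate 3. In EHF Nkx2-5+/Tbx5+ cells the difference was -1.04, and -0.52 without replicate 3. Of its 12 values, 6 were not whole reads.

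The de novo methyltransferases were high in some cells and near 0 in others. Dnmt3b stood at 73.9, 62.1 and 207 RPM in EB Nkx2-5+ cells, 132, 1.08 and 67.0 RPM in EB Tbx5+ cells, 251, 0.0282 and 192 RPM in EHF Nkx2-5+ cells and 134, 1054 and 0.344 RPM in EHF Nkx2-5+/Tbx5+ cells. It was between 62.1 and 1054 RPM in 9 cells and at or under 1.08 RPM in the 3 cells with few genes. The difference in EHF Nkx2-5+/Tbx5+ cells was 1.76, and -0.63 without replicate 2. Dnmt3a was at 152 RPM in EHF Nkx2-5+/Tbx5+ replicate 1 and 102 RPM in EB Tbx5+ replicate 3 and at most 30.2 RPM elsewhere. Dnmt3l, a relative without catalytic activity that assists them, was at 3.69 RPM at most.

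The TET dioxygenases were low in all but 1 or 2 cells. Tet1 stood at 1105 RPM in EHF Nkx2-5+/Tbx5+ replicate 3, which held 96.8% of its RPM, at 32.3 RPM in EB Tbx5+ replicate 1 and at most 1.92 RPM in the other 10 cells. The 2 other EHF Nkx2-5+/Tbx5+ cells had 0.0791 and 0.137 RPM. The largest difference of the 47 genes in any of the comparisons, 4.76 in EHF Nkx2-5+/Tbx5+ cells, thus came from the cell with the fewest genes, and it became -0.47 without it. Tet3 reached 6.55 RPM at most, and Tet2 was above 0 only in EHF Nkx2-5+/Tbx5+ replicate 3, at the worth of 1 read.

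**Figure D5:**
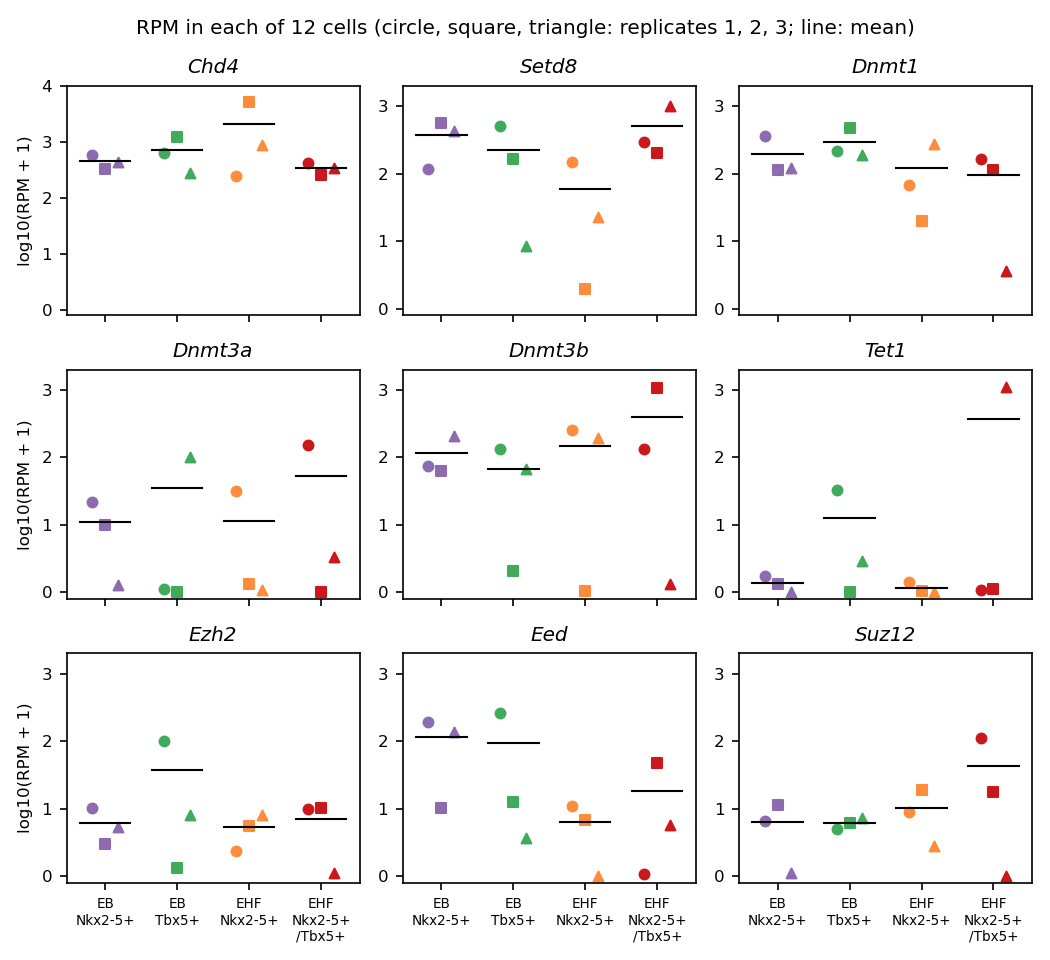
Level of 9 genes in each of the 12 cells, as log10 of RPM plus 1 (y axis), by subpopulation (x axis). Circles, squares and triangles are replicates 1, 2 and 3, and the line is the mean RPM on the same scale. Chd4 and Dnmt1 are above 1 RPM in all 12 cells, Tet1 is high in 1 EHF Nkx2-5+/Tbx5+ cell, and Eed is at 46.2 RPM or less in all 6 EHF cells.

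The Polycomb repressive complex 2 (PRC2) methylates H3 lysine 27 through Ezh1 or Ezh2 and needs Suz12 and Eed as partners. Eed was lower in EHF than in EB cells. It stood at 193, 9.21 and 134 RPM in EB Nkx2-5+ cells, 263, 11.5 and 2.68 RPM in EB Tbx5+ cells, 9.97, 5.84 and 0 RPM in EHF Nkx2-5+ cells and 0.0791, 46.2 and 4.76 RPM in EHF Nkx2-5+/Tbx5+ cells. All 6 EHF cells were at or under 46.2 RPM, and 3 of the 6 EB cells were at or above 134 RPM, so that the stages overlapped in the lower range. The difference for EHF against EB cells was -2.41, and it was at least 2-fold with any cell left out.

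Ezh2 was under 10 RPM in 11 of the 12 cells, with 9.08, 1.94 and 4.29 RPM in EB Nkx2-5+ cells, 99.7, 0.332 and 6.97 RPM in EB Tbx5+ cells, 1.31, 4.54 and 7.13 RPM in EHF Nkx2-5+ cells and 8.89, 9.16 and 0.115 RPM in EHF Nkx2-5+/Tbx5+ cells. Its difference of 1.59 in EB Tbx5+ cells came from EB Tbx5+ replicate 1, a cell with 339 RPM of Kdr and 123 RPM of Epcam, and became -0.15 without it, and the part of other cell types in it was not tested. Suz12 stood at 110.1, 16.7 and 0 RPM in EHF Nkx2-5+/Tbx5+ cells and at 0.111 to 18.1 RPM in the other cells, a difference of 1.66 that became 0.15 without replicate 1. Ezh1 was at 44.9 RPM in EHF Nkx2-5+/Tbx5+ replicate 2 and at most 1.63 RPM in the others. The top cell of both Ezh2 and Eed was EB Tbx5+ replicate 1, while those of Suz12 and Ezh1 were EHF Nkx2-5+/Tbx5+ replicates 1 and 2.

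Among the H3 lysine 9 methyltransferases, Ehmt1 (GLP) and Ehmt2 (G9a), which act as a pair, were distributed differently. Ehmt1 was at 1 RPM or more in all 12 cells, with 12.7, 29.7 and 111 RPM in EB Nkx2-5+ cells, 138, 453 and 1.00 RPM in EB Tbx5+ cells, 3.73, 19.8 and 2.57 RPM in EHF Nkx2-5+ cells and 183, 258 and 3.90 RPM in EHF Nkx2-5+/Tbx5+ cells. Its difference in EHF Nkx2-5+ cells was -2.93, with at most 19.8 RPM in each of them, although 3 cells of other subpopulations were as low. Ehmt2 stood at 54.4, 104 and 131 RPM in EB Nkx2-5+ cells, 54.4, 0.138 and 29.2 RPM in EB Tbx5+ cells, 105, 0.0564 and 198 RPM in EHF Nkx2-5+ cells and 115, 75.7 and 409 RPM in EHF Nkx2-5+/Tbx5+ cells, so that 10 cells were at 29.2 RPM or more and 2, both with few genes, near 0. Of its values, 8 were not whole reads. Setdb1, whose exons overlap those of Cers2 on the opposite strand, was low throughout, at 1.98, 2.20 and 4.68 RPM in EB Nkx2-5+ cells and at most 4.29 RPM elsewhere.

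Of the H3 lysine 4 methyltransferases, Setd1a was at 1 RPM or more in all 12 cells and stood at 1.55, 17.3 and 6.83 RPM in EB Nkx2-5+ cells, 2.42, 4.78 and 151 RPM in EB Tbx5+ cells, 11.3, 5.33 and 189 RPM in EHF Nkx2-5+ cells and 22.1, 52.0 and 225 RPM in EHF Nkx2-5+/Tbx5+ cells. The 3 highest cells, at 151 RPM or more, came from 3 subpopulations, and EB Nkx2-5+ cells had none of them, a difference of -2.17 for that group. Setd1b, the other catalytic subunit of these complexes, was by contrast at 91.0, 28.6 and 1.39 RPM in EB Nkx2-5+ cells and at most 15.3 RPM in the other cells, a difference of 1.87, or 0.86 without replicate 1. Kmt2a was at 225 RPM in EB Nkx2-5+ replicate 1 and 157 RPM in EHF Nkx2-5+/Tbx5+ replicate 1, and at most 1.20 RPM in EB Tbx5+ cells. Other cells were low as well, with 5.73, 1.04 and 0.0802 RPM in EHF Nkx2-5+ cells. EB Nkx2-5+ replicate 2 had 0.573 RPM and EHF Nkx2-5+/Tbx5+ replicate 3 had 0.488 RPM. Kmt2b was at 790.0 RPM in EHF Nkx2-5+ replicate 2, the cell with the outlying Chd4 level, and at 19.5, 39.7 and 4.24 RPM in EHF Nkx2-5+/Tbx5+ cells, against at most 8.80 RPM in the 6 EB cells and 1.84 RPM in the other 2 EHF Nkx2-5+ cells. Without that cell, its difference in EHF Nkx2-5+ cells turned from 3.88 to -0.77, and in EHF Nkx2-5+/Tbx5+ cells from -1.68 to 1.38. Kmt2c and Kmt2d, the large genes of the same family, had means under 1 RPM.

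Among the other SET domain genes, Setd8 (Kmt5a in RefSeq), which adds the first methyl group to H4 lysine 20, had the highest RPM. It stood at 115, 569.7 and 434 RPM in EB Nkx2-5+ cells, 502, 163 and 7.34 RPM in EB Tbx5+ cells, 149, 0.959 and 22.2 RPM in EHF Nkx2-5+ cells and 294, 205 and 1008 RPM in EHF Nkx2-5+/Tbx5+ cells. The EHF Nkx2-5+ cells were all at or under 149 RPM, a level that 2 EB cells were also below, with a difference of -2.48 that was at least 2-fold with any cell left out. Setd2, which trimethylates H3 lysine 36, was at 0.0574 to 139 RPM with no 2-fold difference in any comparison. Setd7 was at 36.6 RPM or more in 4 cells of 3 subpopulations and at most 0.639 RPM in EB Tbx5+ cells, a difference of -2.63. It was also at 1.01 and 0.0557 RPM in EB Nkx2-5+ replicates 1 and 3 and at 0 in EHF Nkx2-5+ replicate 2. Setd6 was at 229 RPM in EB Nkx2-5+ replicate 3 and at most 12.7 RPM elsewhere, and Kmt2e at 238 RPM in EB Tbx5+ replicate 3 and at most 9.08 RPM elsewhere. Their differences of 2.80 in EB Nkx2-5+ cells and 3.00 in EB Tbx5+ cells became -0.31 and -0.16 without those cells. Setd3, an actin histidine methyltransferase singled out after its values were seen, was at 0, 7.93 and 0.143 RPM in EHF Nkx2-5+/Tbx5+ cells and up to 89.0 RPM elsewhere, a difference of -1.55. Kmt2e overlaps Srpk2 on the opposite strand, which was at 5.03 RPM in that cell.

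Of the arginine methyltransferases, Prmt5, the main enzyme of symmetric dimethylation, stood at 40.8, 101 and 65.1 RPM in EB Nkx2-5+ cells, 58.8, 526 and 19.4 RPM in EB Tbx5+ cells, 211, 9.62 and 0.962 RPM in EHF Nkx2-5+ cells and 227, 189 and 0.402 RPM in EHF Nkx2-5+/Tbx5+ cells. It ranged widely within 3 of the subpopulations, and the difference of 1.02 in EB Tbx5+ cells became -1.08 without EB Tbx5+ replicate 2. Prmt2 was at 116 RPM or more in 4 cells, 1 of each subpopulation, and at most 83.6 RPM in the other 8. Prmt3, a cytoplasmic enzyme that methylates a ribosomal protein, was at 109 RPM in EHF Nkx2-5+ replicate 1 and at 48.2, 0.383 and 10.5 RPM in EHF Nkx2-5+/Tbx5+ cells, against at most 6.27 RPM in the 6 EB cells, a difference of 1.58 for EHF against EB cells, or 0.78 without EHF Nkx2-5+ replicate 1. Prmt1, in many tissues the main enzyme of asymmetric dimethylation, was at 5.16 RPM at most.

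The study's own tables of genes that mark the subpopulations hold 10 of the 85 genes: Setd1b, Kdm4b, Setdb1, Kdm5b, Kat7, Chd2, Chd3, Chd6, Kdm1a and Kdm3b. They were drawn from the same 12 cells, so the directions described here for these genes are not independent evidence. They include 6 of the 7 genes that stayed higher in EHF Nkx2-5+/Tbx5+ cells with any cell left out, and Chd7 is the other.

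Genes around these enzymes were described in the same way, as 77 named genes of 7 classes (other methyltransferases, acetyltransferases and demethylases, and the partners of these enzymes), of which 69 were listed and 36 were measured. In EHF Nkx2-5+/Tbx5+ cells 9 of the 36 were higher (25.0% against 19.7% of all genes) and 8 lower (22.2% against 31.5%), with a median of -0.16. In EHF Nkx2-5+ cells 5 were higher (13.9% against 13.1%) and 17 lower (47.2% against 44.9%), in EB Tbx5+ cells 7 (19.4% against 16.2%) and 11 (30.6% against 33.0%), and in EB Nkx2-5+ cells 5 (13.9% against 20.5%) and 13 (36.1% against 27.4%). For EHF against EB cells, 9 were higher (25.0% against 20.0%) and 8 lower (22.2% against 26.7%). Among the 10 measured partners of the deacetylases in corepressor complexes, such as Sin3a, Ncor1, Mta1 and Gatad2a, 3 were higher and 0 lower in EHF Nkx2-5+/Tbx5+ cells (19.7% and 31.5% of all genes) and 2 higher and 1 lower in EB Tbx5+ cells (16.2% and 33.0%). There were 0 higher and 5 lower in EHF Nkx2-5+ cells (13.1% and 44.9%), and the same counts in EB Nkx2-5+ cells (20.5% and 27.4%). This is only 1 of the 7 classes. In EHF Nkx2-5+/Tbx5+ cells, 2 of 9 other methyltransferases were higher and 3 lower (19.7% and 31.5% of all genes). The counts were 3 and 2 of 8 methyltransferase cofactors, 0 and 0 of 2 other acetyltransferases and 1 and 0 of 1 other demethylase. They were 0 and 1 of 3 PRC1 genes and 0 and 2 of 3 DNA methylation partners.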

How the data were processed

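Single cells were lysed, their RNA was reverse transcribed and amplified for 20 PCR cycles, and Nextera libraries were sequenced. According to the labels and the methods of the study, the authors used CASAVA 1.7.0 for base calls and Partek 6.6 for gene levels on mm10. Which aligner they ran is not stated in these sources. The values are a deposited signal, RPM per gene and cell, which the authors scaled to the aligned reads of each cell. They keep no strand and are not corrected for length. Low values came out as whole reads in 96.3% of cases (tolerance 0.02 reads, 0.5 to 20 reads), so 1 read was worth 0.0264 to 0.0802 RPM, while 17 of the 85 genes had some values that were not whole reads. No count model was fitted. The table repeats its values 64 times, and the first copy was used. It holds 14085 names, of which 22 that a spreadsheet had turned into dates were left out.

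Groups were taken from the labels, and 0 columns were left unused. Each subpopulation was compared with the other 9 cells, and the 6 EHF cells with the 6 EB cells, by log2((mean RPM + 10)/(mean RPM + 10)) for genes averaging 10 RPM or more, with a 2-fold limit. No test was run, since the embryo is not named and each subpopulation is 1 sample. The arithmetic was checked on simulated cells with large fold changes and a far lower spread than these cells. Measured chromatin enzyme genes had a median coefficient of variation of 1.58, so the check does not show how reliable the 2-fold calls are here. The genes named were those of the small role groups, the 4 highest and 4 lowest of each comparison, those with no overlap of cells, those in the study's tables, those at 1 RPM or more in all cells or at 0 in all, and the 2 most abundant of each further role, and any other gene was chosen after its values were seen. The members, lists and rules were chosen with earlier results of these data known. Alternatives were 1 or 100 RPM added, other averages, minimum means and detection limits, a rescaling without the 100 most abundant genes, each cell left out, and the cells with the fewest genes left out. Leaving out the 3 such cells was chosen after the data were seen. Sequences and positions are from RefSeq on GRCm38.p6, where all 85 genes were matched, 3 of them by an older symbol. Exon overlaps are from the GENCODE basic annotation of the mouse. Python 3.11.15, numpy 2.4.6, pandas 2.3.3 and matplotlib 3.10.9 were used.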

Additional observations from a re-analysis of the deposited data

How the results depend on the processing

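The counts and medians depended on how cells were averaged more than on the RPM scale. In this paragraph pairs of counts are genes at least 2-fold higher and lower, and the subpopulation is named each time. Except where stated, the share over all genes is not set beside these counts, nor the median of all genes beside the medians. Alone they do not show whether chromatin enzyme genes changed apart from other genes. With 1 RPM added, the median of EB Nkx2-5+ cells was -0.38. With 100 RPM added, the counts were 2 and 1 in EHF Nkx2-5+/Tbx5+ cells, 2 and 3 in EHF Nkx2-5+ cells, 0 and 1 in EB Tbx5+ cells, 0 and 2 in EB Nkx2-5+ cells and 2 and 0 for EHF against EB cells, and the medians of EHF Nkx2-5+ and EB Nkx2-5+ cells were -0.183 and -0.0990. With the mean of log2 values, 2, 11, 8 and 3 genes were lower in the 4 subpopulations in the same order, and 5 were higher and 4 lower in EHF cells. The medians of EHF Nkx2-5+ and EB Nkx2-5+ cells were then -0.47 and 0.18, and Kmt2b in EHF Nkx2-5+/Tbx5+ cells was 0.55. With the median over cells, 3, 11, 5 and 3 genes were lower, 7 were higher in EHF than in EB cells, and the medians of EHF Nkx2-5+, EB Tbx5+ and EB Nkx2-5+ cells were -0.17, -0.11 and 0.080. Differences that rest on 1 cell turned with that average, namely Kmt2b to -0.085 in EHF Nkx2-5+ and 1.32 in EHF Nkx2-5+/Tbx5+ cells, Kmt2e to -0.021 in EB Tbx5+, Prmt3 to -0.43 in EHF Nkx2-5+, Setd6 to -0.021 in EB Nkx2-5+ and 0.021 in EHF Nkx2-5+/Tbx5+, and Tet1 to -0.059 for EHF against EB, 0.024 in EB Nkx2-5+, 0.23 in EB Tbx5+ and -0.024 in EHF Nkx2-5+/Tbx5+ cells. With a minimum mean of 50 RPM the counts were 6 and 4 in EHF Nkx2-5+/Tbx5+, 2 and 4 in EHF Nkx2-5+, 3 and 4 in EB Tbx5+, 1 and 6 in EB Nkx2-5+ cells and 7 and 2 for EHF against EB cells, the medians of the latter pair were -0.91 and 1.03, and 0 genes lay above all other cells in EHF Nkx2-5+/Tbx5+ cells. These smaller counts follow from fewer genes. With no minimum, the medians of EHF Nkx2-5+ and EB Nkx2-5+ cells were -0.20 and -0.036. Without the 2 cells with the fewest genes, Kmt2b was -0.81 in EHF Nkx2-5+ and 1.72 in EHF Nkx2-5+/Tbx5+ cells, and Tet1 was -0.65 for EHF against EB, 1.06 in EB Tbx5+ and -0.52 in EHF Nkx2-5+/Tbx5+ cells. In EHF Nkx2-5+ cells 7 genes were then higher (15.2% against 13.2% of all genes). In them 3 genes did not overlap the rest, 2 above (4.35% against 2.18%) and 1 below (2.16% of all genes). In EHF Nkx2-5+/Tbx5+ cells 6 genes did not overlap, all of them above (13.0% against 4.07%). Without the 3 such cells, Ehmt1 in EB Tbx5+ cells was -0.27, Kmt2b was -0.90 in EHF Nkx2-5+ and 1.69 in EHF Nkx2-5+/Tbx5+ cells, and Tet1 was -0.75 for EHF against EB, 1.41 in EB Tbx5+ and -0.58 in EHF Nkx2-5+/Tbx5+ cells. EB Tbx5+ cells had 4 higher genes (8.7% against 16.2% of all genes). In EHF Nkx2-5+ cells 3 genes did not overlap, 2 above (4.35% against 2.48%) and 1 below (4.26% of all genes). In EHF Nkx2-5+/Tbx5+ cells 7 did not overlap, all of them above (15.2% against 4.62%). With each cell left out in turn, the differences ranged from -0.15 to 2.06 for Ezh2 and -0.16 to 3.53 for Kmt2e in EB Tbx5+ cells, -0.77 to 4.45 for Kmt2b and -0.86 to 1.81 for Prmt3 in EHF Nkx2-5+ cells, -2.19 to 1.38 for Kmt2b and -0.47 to 5.33 for Tet1 in EHF Nkx2-5+/Tbx5+ cells, -0.31 to 3.33 for Setd6 in EB Nkx2-5+ cells, -3.60 to 1.07 for Tet1 in EB Tbx5+ cells, and -2.20 to 0.19 for Setd6 and -0.65 to 4.20 for Tet1 in EHF against EB cells. The medians were then taken over the genes averaging 10 RPM or more in the cells kept, so the genes differed between them. They ranged from -0.79 to 0.023 in EB Nkx2-5+, -1.37 to -0.48 in EB Tbx5+, -1.16 to -0.67 in EHF Nkx2-5+ and -0.51 to 0.52 in EHF Nkx2-5+/Tbx5+ cells. EHF Nkx2-5+ cells had 2 to 5 higher genes and EHF Nkx2-5+/Tbx5+ cells 9 to 17 lower ones, and 0 to 5 genes did not overlap in EHF Nkx2-5+/Tbx5+ cells and 0 to 3 in each of the other subpopulations. Rescaling without the 100 most abundant genes moved the median of all genes by -0.12 in EHF Nkx2-5+/Tbx5+ and 0.13 in EHF Nkx2-5+ cells. Over 45 differences of named genes and 19 alternatives, 823 of 855 values were not counted as turned. A turn was counted only for a difference that was at least 2-fold in the main setting. Adding 1 or 100 RPM to the means could change the size of a difference but not its direction. Most of these genes were also named for having the largest differences of a comparison, so the share is no measure of robustness. No paired analysis was possible because the replicate numbers only name the cells and no test was run.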
